A study of Mus musculus with 6 samples.

Results

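The comparison described here sets the liver pool labelled wild-type (WT) after 48 h on doxycycline (Dox) against the pool labelled WT after 24 h. Its members are the named genes whose brightest probe lay above an intensity of 129, the detection level, on at least 1 of the 2 arrays. They numbered 8115 of 19057 named genes, or 42.6%. Of these, 6971 were detected on both arrays and 1144 on 1 of them.

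Both pools came from FVB mice aged 10 weeks with no transgene named in their labels, fed Dox200 chow and left without food for 6 h before the liver was taken. The series was built around LIXs mice, in which Dox induces Xbp1s, the active form of a transcription factor of the endoplasmic reticulum (ER) stress response, from a TRE promoter. It holds 6 arrays, 1 for each of the labels WT and LIXs at both times on Dox, and 1 each for mice labelled WT that were refed for 2 h or had fasted for 24 h. Mice of all 6 arrays were aged 10 weeks, and the pools labelled LIXs had the same 6 h fast. Each array carried 1 pooled sample labelled as a liver slice, from a number of mice not given in the sources used here. Because each time had 1 array, there was no replicate and no test between the 2 times, and no array labelled WT and free of Dox with the same 6 h fast was analysed here. The time on Dox and any difference in harvest, handling or hybridisation between the pools cannot be told apart.

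Between 7505 and 7581 named genes were detected per array, with the lowest count on the array labelled WT at 24 h and the highest on that labelled WT at 48 h. Liver genes were bright on both: the summed intensity of 15 hepatocyte markers was 213806 at 24 h and 206159 at 48 h, among 160252 to 245179 on the other arrays. Apoa1, the main protein of high-density lipoprotein, read 37965 and 40701, and Ttr, a thyroid hormone carrier, read 38995 and 34539. The albumin probe was dim, with 137 and 130.

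The summed values of secretory pathway genes went against the genotype labels, while those of Xbp1 itself were mixed. For Xbp1 the array labelled WT at 24 h of Dox gave 4259 and that at 48 h gave 5210, with 4537 and 4350 on those labelled LIXs and 5120 and 4457 on the refed and fasted arrays. Its highest value and its lowest were thus both on arrays labelled WT on Dox. Genes of the secretory pathway, which Xbp1s is known to activate, were brightest on the 2 arrays labelled WT on Dox. ER chaperones and folding enzymes summed to 71345 and 67484 on the arrays labelled WT, to 38793 and 52753 on those labelled LIXs and to at most 54984 on the other 2. ER-associated degradation genes summed to 57959 and 58820 against 34050 and 42756, translocation genes to 70505 and 64853 against 39757 and 49175, and COPII, COPI and Golgi genes to 62954 and 57271 against 37215 and 42673. In all 4 lists both arrays labelled WT on Dox lay above the other 4 arrays. The arrays are therefore named by their labels throughout, and no direction between the 2 times is read as one of transgene-free liver. The cause was not tested.

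Cells answer a sudden stimulus by first transcribing immediate early genes, many of which encode transcription factors such as FOS, JUN, EGR1 and ATF3. Their RNAs are short-lived, and phosphatases and other inhibitors induced in the same wave shut the signal off. In the liver these genes respond to feeding, hormones, cytokines, injury and handling, and the metabolic program of the hepatocyte follows food intake and the time of day.

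Higher by at least 2-fold at 48 h on the arrays labelled WT were 197 genes, 2.43% of those counted, and 107 genes, 1.32%, were lower by at least 2-fold. Of the higher genes 138 were detected on both arrays and 59 on only 1. Of the lower genes 65 were detected on both and 42 on only 1. A gene detected on only 1 array was counted by its corrected values, and its lower bound can be under 2-fold. These counts use log2 intensities after background correction, the scale of every log2 difference below unless another is named. The median difference over all 8115 genes was -0.01 on the log2 scale, with 49.1% of them above 0 and 50.8% below, and the middle 90% of genes lay between -0.74 and 0.81. A difference of 4-fold or more was seen for 14 genes that were higher and 1 that was lower. On the deposited intensities, which still hold the background and so understate ratios of dim probes, 41 genes (0.505%) were 2-fold higher and 15 (0.185%) 2-fold lower, all of them within the first 2 sets. The detection rule had no gap at its edge: the dimmest gene counted reached 129.18 on its brighter array, and the brightest gene left out reached 129.14.

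**Figure D1:**
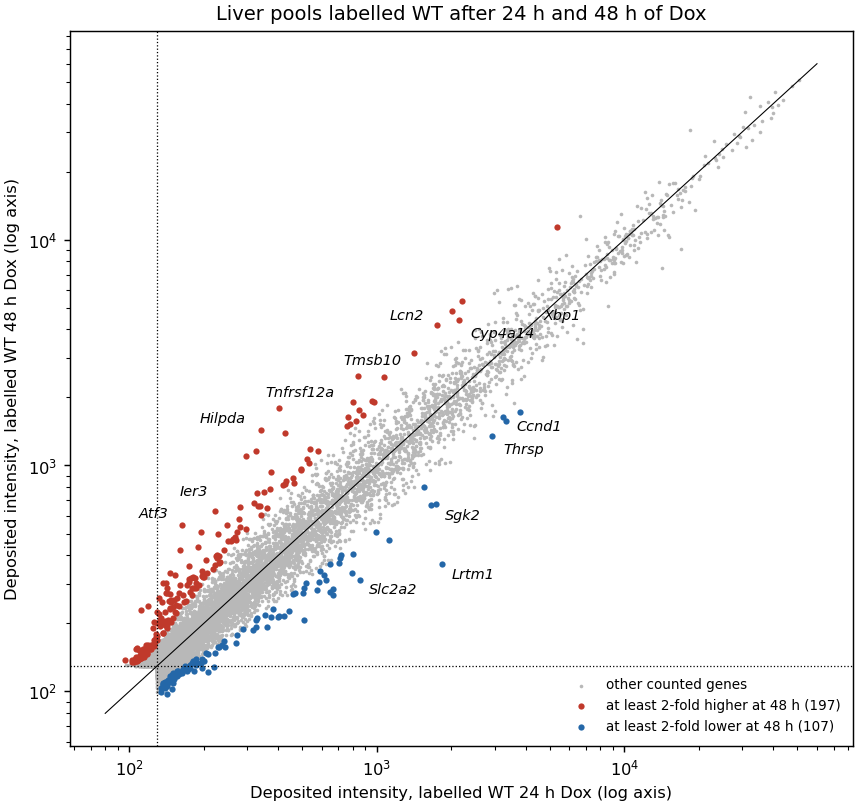
Deposited intensity of each counted named gene on the array labelled WT at 24 h (horizontal, log axis) and at 48 h (vertical, log axis), with genes at least 2-fold higher or lower after background correction in colour, the detection level of 129 dotted and equality as a solid line. Most of the 8115 genes lie along the line, 197 coloured points lie above it and 107 below it.

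After background correction, immediate early transcription factors were the list with the largest median difference among the functional lists. Of 27 genes, 26 had a named probe and 16 were counted, 15 of them on both arrays. The median over the 16 was 0.89 against -0.01 for all genes, 7 were 2-fold higher and 0 were 2-fold lower. The shares of all genes to set beside the list counts below were 2.43% 2-fold higher, 1.32% 2-fold lower, 49.1% above 0 and 50.8% below. Over the 15 detected on both arrays the median was 0.84, and with the remaining gene at its lower bound it was 0.77. On the deposited scale the median was 0.40, below the 0.45 of the cytoskeletal list described later. Many of the immediate early genes lay close to the detection level.

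Atf3, a stress-induced repressor and activator of the ATF/CREB family, read 163 at 24 h and 546 at 48 h. That was the largest increase among genes detected on both arrays, a log2 difference of 2.69, or 1.74 on the deposited intensities. On the other arrays Atf3 read between 169 and 298, so the 24 h array was the lowest of 6 and the 48 h array the highest. Ier3, an early regulator of cell survival, had the same order, with 223 and 630, 229 to 425 on the others and a difference of 2.05. Klf6, a zinc finger factor induced by liver injury, read 327 and 752, a difference of 1.49, and its 48 h value was the highest of the 6.

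Several other members differed in the same direction, but Junb and Egr1 were not at their highest at 48 h. Junb read 320 and 683, a difference of 1.38, and the refed array stood above both with 1139. Fos was close to the detection level, with 133 and 195, a difference of 1.35 after background correction and 0.55 on the deposited intensities. Egr1, a zinc finger factor induced by growth factors, read 979 and 1917, a difference of 1.04, against 4032 on the refed array. Zfp36, which encodes a protein that speeds the decay of cytokine mRNAs, read 461 and 840, a difference of 1.02. Jun fell short of 2-fold with 200 and 285 and a difference of 0.84. Klf2, Jund and Fosl2 lay between 0.01 and 0.08, and Klf10 was the only counted member below 0, at -0.20.

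Of 25 early feedback regulators, 19 were counted, with a median of 0.41, 4 of them 2-fold higher and 0 2-fold lower. Over the 15 detected on both arrays the median was 0.25, and with the others at their lower bounds it was 0.29. Dusp1, a phosphatase that switches off stress-activated kinases, read 495 and 956, a difference of 1.10, while the arrays labelled LIXs read 983 at 24 h and 831 at 48 h. Dusp8, a phosphatase of the same family, was detected only at 48 h, with 119 and 239, and was at least 4.03-fold higher there, or at least 1.85-fold on the deposited intensities. Dusp5, a nuclear phosphatase acting on ERK, was also detected only at 48 h, with 128 and 174 and a bound of at least 2.23-fold, or 1.35-fold on the deposited intensities. Socs3, the inhibitor of interleukin-6 signalling, read 349 and 761, a difference of 1.38, with 1496 on the refed array. Gadd45a, a growth arrest gene, lay in the other direction, with 362 and 238 and a difference of -0.89.

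Many promoters of such genes hold a cyclic AMP response element, TGACGTCA, or its shorter core, TGACG, to which CREB and ATF proteins can bind. The 250 bases before the annotated start are shown for 5 of the genes above that hold the core, with every TGACG or its reverse complement CGTCA in capitals. They are RefSeq sequences of the mouse build GRCm38.p6, read 5′ to 3′ along the gene's own strand.
Fos, chr12:85473640-85473889, plus strand: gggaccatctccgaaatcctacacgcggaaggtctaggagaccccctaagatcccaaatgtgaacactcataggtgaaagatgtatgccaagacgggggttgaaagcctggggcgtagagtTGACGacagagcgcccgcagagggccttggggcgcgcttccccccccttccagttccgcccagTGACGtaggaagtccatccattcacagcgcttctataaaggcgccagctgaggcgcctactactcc
Junb, chr8:84978749-84978998, minus strand: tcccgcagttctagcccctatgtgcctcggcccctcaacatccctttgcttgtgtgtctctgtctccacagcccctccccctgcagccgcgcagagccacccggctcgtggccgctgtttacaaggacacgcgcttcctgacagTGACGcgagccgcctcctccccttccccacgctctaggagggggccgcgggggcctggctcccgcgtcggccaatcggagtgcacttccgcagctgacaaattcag
Atf3, chr1:191183334-191183583, minus strand: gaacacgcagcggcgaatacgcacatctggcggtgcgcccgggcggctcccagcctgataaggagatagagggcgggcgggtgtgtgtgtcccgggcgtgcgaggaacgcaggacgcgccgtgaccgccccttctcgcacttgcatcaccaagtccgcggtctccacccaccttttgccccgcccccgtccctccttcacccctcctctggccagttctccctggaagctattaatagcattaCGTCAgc
Dusp1, chr17:26508473-26508722, minus strand: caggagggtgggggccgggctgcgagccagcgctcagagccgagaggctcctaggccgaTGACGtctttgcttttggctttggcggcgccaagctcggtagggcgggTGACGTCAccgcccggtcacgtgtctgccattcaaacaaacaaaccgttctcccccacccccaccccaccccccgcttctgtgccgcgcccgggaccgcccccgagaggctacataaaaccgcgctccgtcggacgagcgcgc
Dusp8, chr7:142095285-142095534, minus strand: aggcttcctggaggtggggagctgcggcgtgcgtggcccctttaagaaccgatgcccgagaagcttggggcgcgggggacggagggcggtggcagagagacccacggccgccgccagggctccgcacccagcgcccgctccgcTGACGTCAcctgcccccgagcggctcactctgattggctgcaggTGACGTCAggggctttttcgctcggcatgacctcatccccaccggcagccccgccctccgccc
In Fos the core lies 129 and 66 bases before the start on the gene's strand, in Junb 106 bases before it, and in Atf3 7 bases before it on the opposite strand. Dusp1 holds 3 matches, a pair of which form 1 full TGACGTCA, and the 4 matches of Dusp8 form full elements 107 and 63 bases before the start. Of 11 counted early genes and feedback regulators that were 2-fold higher, 10 had a promoter entry and 6 of those held TGACG on either strand. Ier3, Klf6, Socs3 and Zfp36 held none. The core was about as frequent in the 2-fold higher genes as in all counted ones: it stood in 48 of 160 promoters (30%) of the former, in 31.0% of those of counted genes, in 23.2% of those of 2-fold lower genes and in 19.8% of all 27025 promoters. The full element stood in 3.75% of promoters of 2-fold higher genes and 3.07% of those of counted genes. It stood in 0 of 6 promoters of 2-fold higher immediate early transcription factors. Several other motifs were also searched, among them the AP-1 site TGANTCA. That site stood in 11.25% of promoters of 2-fold higher genes, 8.54% of those of 2-fold lower genes and 5.92% of those of counted genes. A match says only that the letters are present.

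Next to Atf3 among the largest increases of genes detected on both arrays stood Tnfrsf12a, the receptor for the cytokine TWEAK. It read 405 at 24 h and 1801 at 48 h, a difference of 2.45 (2.15 deposited), against 428 to 683 on the other arrays. Cdkn1a, which encodes the cell cycle inhibitor p21, read 426 and 1393, a difference of 1.97, and its 2 other detected probes had the same sign. The fasted array also read high for Cdkn1a, with 1198. Hilpda, a lipid droplet protein induced by hypoxia and fatty acids, read 342 and 1439, a difference of 2.43, with 385 to 820 elsewhere.

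Less familiar genes stood beside them. Cdr2, which encodes an antigen of cerebellar degeneration, read 296 and 1098 (2.30), Rassf1, a tumour suppressor of the RAS effector family, 324 and 1154 (2.20), and Phlda2, an imprinted growth regulator, 195 and 508 (2.02). Ptpn14, a phosphatase that restrains YAP, read 137 and 302, Mllt11 140 and 302, and Stx3, a membrane fusion protein, 132 and 260. Rab15 and Acot10 completed the 15 largest increases, at 1.97 each. Ptpn14, Mllt11, Stx3, Rab15 and Acot10 were all near the detection level at 24 h, and their differences were 2.23, 2.15, 2.08, 1.97 and 1.97 after background correction but 1.14, 1.11, 0.97, 1.10 and 1.01 on the deposited intensities.

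**Figure D2:**
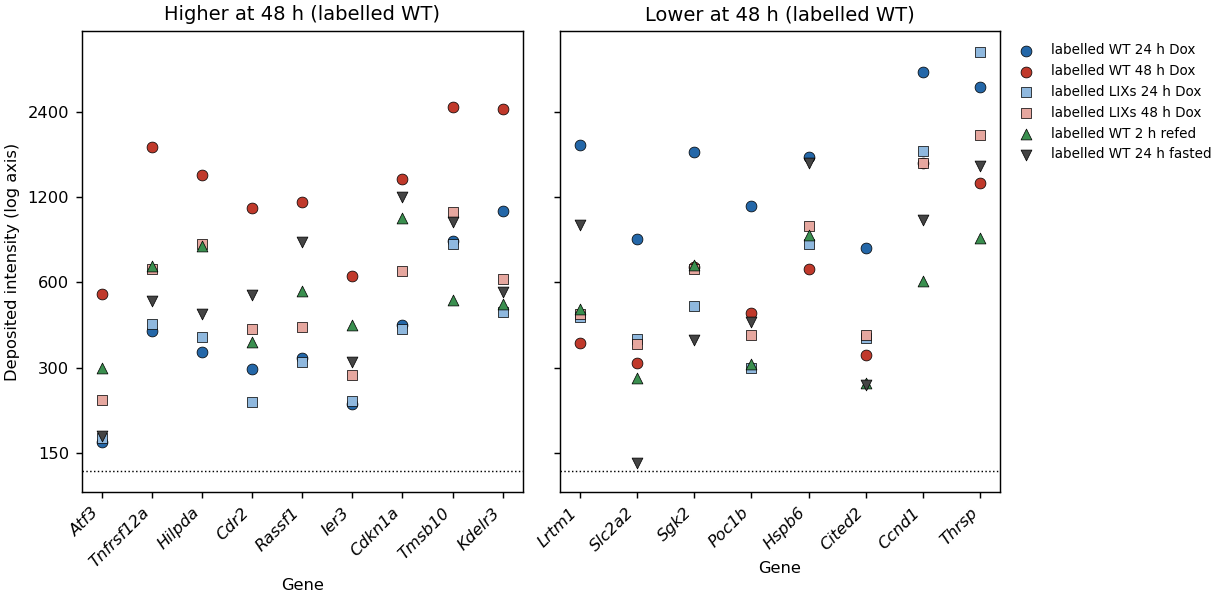
Deposited intensity (log axis) of 17 named genes on each of the 6 arrays, circles for those labelled WT on Dox, squares for those labelled LIXs on Dox and triangles for the refed and fasted ones, with the detection level dotted. In the left panel the red circle (labelled WT, 48 h) is the highest symbol for all 9 genes; in the right panel the blue circle (labelled WT, 24 h) is the highest for all genes except Thrsp.

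The p53 target list had a median of 0.44 over 10 counted genes, with Cdkn1a and Bbc3, a mediator of cell death, 2-fold higher and 0 genes 2-fold lower. Bbc3 read 154 and 225, a difference of 1.12 (0.55 deposited). Mdm2, the p53 antagonist, was closer, with 873 and 1127. Cdc20, an activator of mitotic ubiquitin ligase, was 2-fold higher in the proliferation list with 257 and 464, while the cyclin gene Ccnd1 was 2-fold lower, with 3313 and 1580. The median of the 11 counted proliferation genes was 0.06.

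Cytoskeletal genes were the functional list with the next largest median, 0.57 over 23 counted members, and 17 of them were above 0. On the deposited intensities their median was 0.45, the largest of the functional lists. Tmsb10, an actin-binding peptide, read 840 at 24 h and 2491 at 48 h, a difference of 1.68 (1.57 deposited), with 521 to 1067 on the other arrays. The tubulin gene Tubb2b read 370 and 789, a difference of 1.33. Anxa2, S100a11 and Tubb5 lay between 0.77 and 0.85, whereas Krt8, the keratin of hepatocytes, stood at -0.19.

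Heat shock genes had a median of 0.29 over 21 counted members, with 3 members 2-fold higher. Hspb1, a small heat shock protein, read 141 and 274 (1.91, or 0.96 deposited), Hspa2 199 and 330 (1.16), and Dnajb1, the HSP40 partner of HSP70, 850 and 1764 (1.14). The constitutive HSP70 gene Hspa8 read 3492 and 6088, a difference of 0.82. In the oxidative stress list Hmox1, which breaks down heme, was the 1 gene past 2-fold, with 184 and 318 and a difference of 1.31, and the median of 17 counted genes was 0.05.

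ER stress genes lay on both sides of 0. In the PERK, ATF4 and CHOP list, 18 of 23 counted genes were above 0 with a median of 0.19. Ddit3, which encodes the stress factor CHOP, read 373 and 938, a difference of 1.59, although the fasted array was higher still at 1162. Mthfd2, a mitochondrial folate enzyme, read 148 and 203 (1.01, or 0.46 deposited). Of the chaperones and folding enzymes 14 of 22 were below 0, where 50.8% of all genes were, and the median was -0.17, with none past 2-fold in either direction. Fkbp11, a secretory pathway isomerase, read 8565 and 5106 (-0.76) and Creld2 3016 and 4334 (0.54).

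The other parts of the secretory pathway lay slightly below 0. ER translocation genes had a median of -0.15, degradation genes one of -0.12, and COPII, COPI and Golgi genes one of -0.23. In the last list 24 of 32 were below 0, against 50.8% of all genes. Kdelr3, a receptor that returns ER proteins from the Golgi, was an exception with 1068 and 2452, a difference of 1.27. It stood between 472 and 615 on the other 4 arrays, below both arrays labelled WT on Dox, as did the summed level of its list. Sec24b, a cargo adaptor of COPII vesicles, read 180 and 267 (1.01, or 0.57 deposited).

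**Figure D3:**
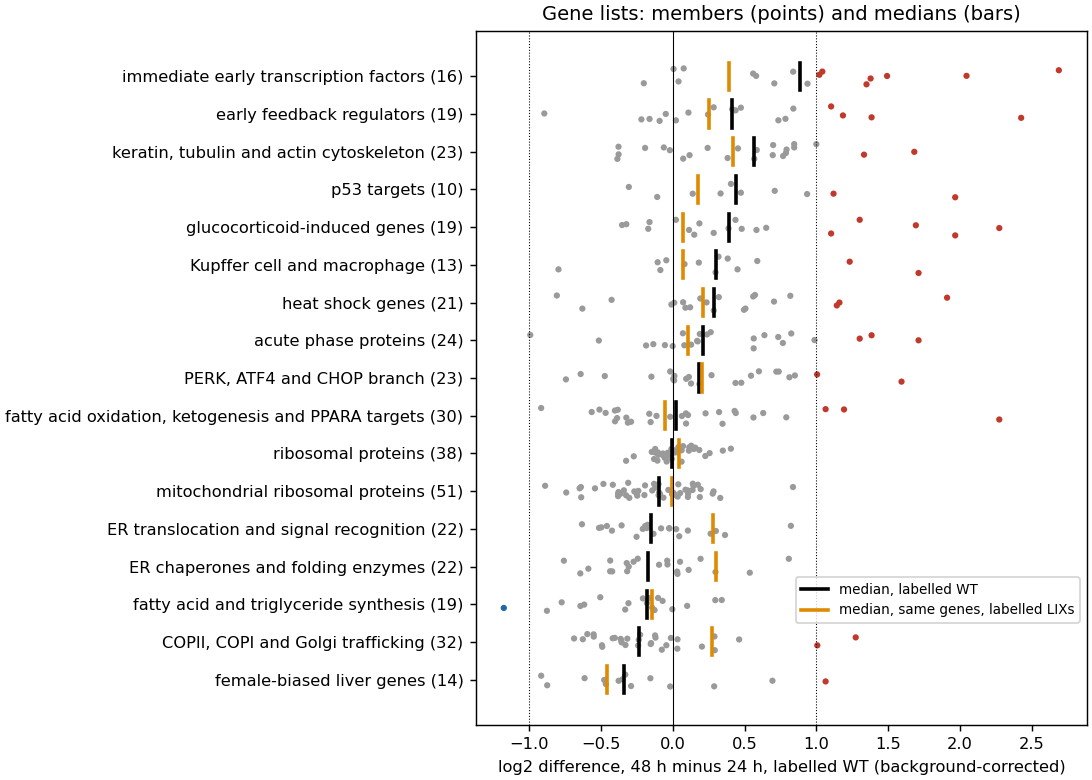
Log2 difference of the array labelled WT at 48 h from that at 24 h (horizontal axis, background-corrected) for the counted members of 17 gene lists, with 1 point per gene, a black bar at the median and an orange bar at the median of the same genes between the arrays labelled LIXs. Immediate early transcription factors have the rightmost black bar at 0.89, and female-biased liver genes the leftmost at -0.34.

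Inflammatory genes were higher at 48 h in part. Of 24 counted acute phase genes 18 were above 0, with a median of 0.21, and 3 were 2-fold higher. Lcn2, an iron-binding protein of the innate response, read 1746 and 4169, a difference of 1.30, against 17320 on the refed array. Saa1, serum amyloid A, read 18476 and 30682, a difference of 0.73. Hamp2, a hepcidin gene, lay in the other direction with 6828 and 3481 (-0.99).

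Cd14, the co-receptor for endotoxin, read 174 and 357 (1.71, or 1.04 deposited), and the chemokine gene Ccl4 read 146 and 335 (2.20, or 1.20 deposited). Both are made by macrophages, as is Lyz2, a lysozyme, with 250 and 461 (1.23). The Kupffer cell and macrophage list summed to 4772 at 24 h and 5639 at 48 h, with 5100 to 6640 on the other arrays. Over its 13 counted genes the median was 0.30, or 0.14 deposited, with 9 above 0, 4 below and a range from -0.79 to 1.71. Its defining genes Clec4f and Vsig4 read 377 and 357, and 595 and 580, and Adgre1 read 151 and 158. In the neutrophil list 5 of 14 genes with a probe were counted, and all 14 summed to 1694 at 24 h and 1927 at 48 h, against 1692 to 3138 on the other arrays. S100a8, a granulocyte calcium-binding protein, read 199 and 320 (1.10), and its partner S100a9 127 and 135. Prtn3, a granule protease, was detected only at 48 h, with 105 and 139, at least 1.28-fold higher there (1.08-fold deposited). Timp1, an inhibitor of matrix proteases, read 134 and 212 (1.53, or 0.66 deposited), in a stellate cell list with a median of 0.11. The part of these cells in the differences was not tested, and in a bulk sample fewer cells of a type and less RNA per cell cannot be told apart.

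Among metabolic genes Pdk4, the kinase that blocks pyruvate oxidation in fasting, read 161 at 24 h and 422 at 48 h (2.27, or 1.39 deposited). Its 24 h value was the lowest of the 6 arrays, and the refed array stood at 410 and the fasted array at 246. Igfbp1, a fasting-induced carrier of insulin-like growth factors, read 132 and 219 (1.69, or 0.73 deposited). Ppargc1a, a coactivator of gluconeogenic genes, was detected only at 48 h, with 116 and 149, at least 1.56-fold higher there (1.16-fold deposited). In contrast Pck1, the rate-limiting gluconeogenic enzyme, read 303 and 288, and G6pc, which releases free glucose, 1307 and 1782.

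Slc2a2, the glucose transporter GLUT2 of the hepatocyte, was among the largest decreases. It read 856 at 24 h and 311 at 48 h, a difference of -1.81 (-1.46 deposited), and its 2 other detected probes had the same sign. The other 4 arrays lay between 138 and 378, so the 24 h array stood above all the rest. The gluconeogenesis list as a whole had a median of 0.02 over 15 counted genes.

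Glucocorticoid-induced genes had a median of 0.39 over 19 counted members and 5 genes past 2-fold, Pdk4, Cdkn1a, Igfbp1, Lcn2 and Dusp1. All 5 also stand in other lists. Other members differed less: Fkbp5 read 277 and 350 (0.48) and Tsc22d3 487 and 683 (0.58), while Per1 stood at 0.65 and Sgk1 at 0.02.

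Fatty acid and triglyceride synthesis genes lay mostly below 0, with 16 of 19 counted members, against 50.8% of all genes, and a median of -0.18. Thrsp, a carbohydrate-responsive regulator of lipogenesis, was the 1 member past 2-fold, with 2934 and 1351 and a difference of -1.18. It was also lower at 48 h between the arrays labelled LIXs, with 3896 and 1981. Acacb, which makes the malonyl-CoA that restrains fat oxidation, read 598 and 368 (-0.88), Dgat2 6809 and 4025 (-0.77) and Scd1 5201 and 3426 (-0.62).

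Among PPARA targets the median of 30 counted genes was 0.02, and 3 were 2-fold higher. Besides Pdk4 these were Acot1, a cytosolic acyl-CoA thioesterase, with 768 and 1636 (1.19), and Cyp4a14, a fatty acid omega-hydroxylase, with 2152 and 4400 (1.06). The 24 h value of Acot1 was the lowest of the 6 arrays, and the 4 arrays outside the pair lay between 2456 and 4878. In the sterol list Srebf2, the master regulator of cholesterol synthesis, read 159 and 272 (1.44, or 0.78 deposited) and Sqle, squalene epoxidase, 427 and 824 (1.13). The 18 counted sterol genes had a median of -0.03, and Fdps and Ebp stood at -0.52 and -0.46.

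Bile acid genes were below 0 in 12 of 18 cases, against 50.8% of all genes, with a median of -0.17 and no member past 2-fold. Cyp8b1, which sets the share of cholic acid, was among the nearest to it, with 14235 and 7494 and a difference of -0.93, on both scales. On the other arrays Cyp8b1 stood between 6940 and 16177, so the difference between the 2 times was within the spread of the 6 arrays. Nr5a2, a nuclear receptor that activates bile acid genes, read 226 and 163 (-0.94, or -0.48 deposited).

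The largest decreases joined genes with little in common. Lrtm1, a leucine-rich repeat membrane protein, read 1837 at 24 h and 366 at 48 h, a difference of -2.67 (-2.33 deposited), the 1 decrease past 4-fold. On the other arrays Lrtm1 stood between 453 and 959. Dnaic1, a dynein chain of cilia, read 506 and 206 (-1.87), the water channel gene Aqp4 668 and 267 (-1.72) and Nipal3, a putative magnesium transporter, 646 and 275 (-1.60). Zap70, a kinase of the T cell receptor, read 663 and 284 (-1.57), Cited2, a transcriptional coregulator, 794 and 333 (-1.54), and Sgk2, a kinase of the SGK family, 1736 and 679 (-1.49).

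Poc1b, a centriole protein, read 1119 and 468 (-1.45), the small heat shock gene Hspb6 1657 and 669 (-1.44) and Noct, which encodes a rhythmic RNA-modifying and NADP phosphatase protein, 361 and 192 (-1.43). Nmral1, Olfml1, Hsbp1l1 and Rab3a closed the 15 largest decreases, between -1.42 and -1.34. For Aqp4, Sgk2, Poc1b and Cited2, as for most of the 2-fold lower genes, the 24 h value was the highest of the 6 arrays. Their 48 h value lay within the range of the other 4, except for Poc1b, which lay above it.

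Among genes detected on 1 array only, the largest lower bounds for 48 h were those of Dusp8, 2610203C22Rik (at least 3.74-fold higher), Nup50, a nuclear pore protein (3.02), Cyb561 (2.71) and Noc3l (2.38). For 24 h they were those of Arap1 (at least 3.48-fold lower at 48 h), 1700019D03Rik (3.15), Zfp933 (2.87), Ccnl2 (2.46) and Recql5 (2.29). On the deposited intensities all 10 bounds lay between 1.36 and 1.85. Another detected probe of Zfp933 went the other way. Of 51 higher genes with another detected probe, 47 had the same sign on all such probes, and of 34 lower genes 30 did. Lpl, lipoprotein lipase, which read 338 and 659 (1.21), also had a detected probe that went the other way.

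The position of the arrays labelled WT on Dox among all 6 differed between the directions. Of the 197 higher genes, the 48 h array alone was at the extreme in 100 (50.8%), the 24 h array alone in 37 (18.8%) and both in 38 (19.3%). Of the 107 lower genes, the 48 h array alone was at the extreme in 12 (11.2%), the 24 h array alone in 61 (57.0%) and both in 27 (25.2%). Among all genes higher at 48 h by any amount the corresponding shares were 33.1%, 26.9% and 2.91%, and among all lower ones 25.6%, 34.0% and 2.62%. A large difference itself makes an extreme position more likely, so the shares are a description. In both directions the array holding the brighter signal was the more often extreme, the one at 48 h for higher genes and the one at 24 h for lower ones.

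**Figure D4:**
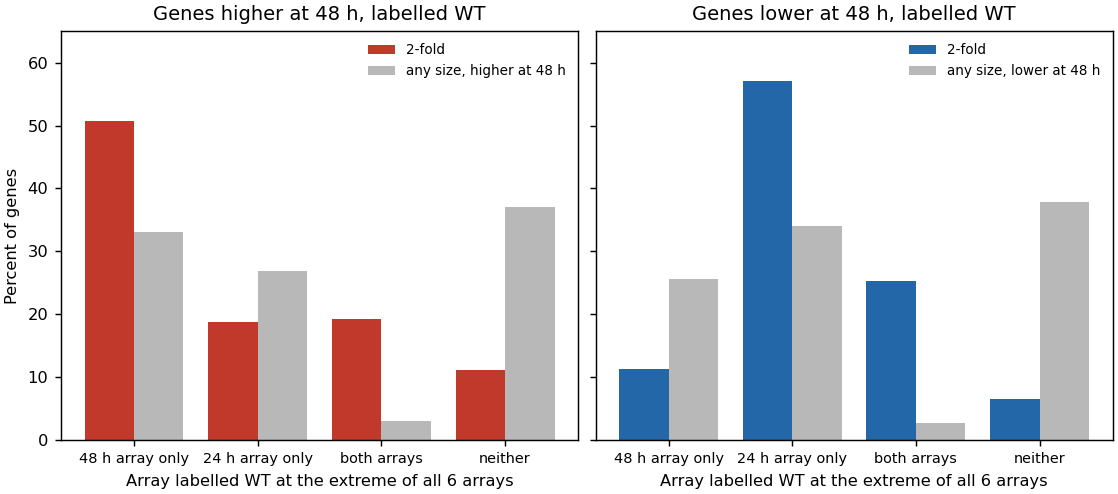
Percent of genes for which the array labelled WT at 48 h only, at 24 h only, both or neither was at the extreme of all 6 arrays, in colour for 2-fold differences and in grey for differences of any size in the same direction, with higher genes on the left and lower genes on the right. The tallest coloured bar is the 48 h array for higher genes (50.8%) and the 24 h array for lower genes (57.0%).

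All 38 counted ribosomal protein genes lay between -0.32 and 0.41, with a median of -0.01. The 44 counted oxidative phosphorylation genes had a median of -0.10 and a range from -0.58 to 0.28. Below 0 were 30 of them, against 50.8% of all genes. The 51 mitochondrial ribosomal protein genes, with the same median, ranged from -0.89 to 0.84. Xenobiotic metabolism genes had a median of -0.03 over 31, none past 2-fold. In the list of mitochondrial stress and import genes, with a median of -0.06, Timm17a, a subunit of the inner membrane import channel, was the 1 gene past 2-fold, with 828 and 1573 (1.01).

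The arrays labelled LIXs at 48 h and 24 h give a second pair of pools at the same times, sharing no array with the pair labelled WT. In that pair 40 genes were 2-fold higher (0.497% of 8043 counted) and 66 were 2-fold lower (0.821%). Of the 197 genes higher in the pair labelled WT, 151 (76.6%) were also above 0 in that labelled LIXs, where 53.1% of all counted genes were above 0. Of the 107 lower genes 56 (52.3%) were also below 0, where 46.7% of all were. The differences were smaller, with a median of 0.30 for the genes whose median was 1.17 in the pair labelled WT, and of -0.04 for genes at -1.18. Over the 7438 genes counted in both pairs, the 2 sets of differences had a Pearson correlation of 0.20 and a Spearman correlation of 0.20, across genes that share arrays and are not independent.

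Past 2-fold in both pairs in the same direction were 9 higher and 3 lower genes. The 5 largest of the higher genes were Hilpda, with 1.31 between the arrays labelled LIXs, Cdr2 (1.24), Tubb2b (1.53), Mob3a (1.26) and Bcat1, the cytosolic enzyme that starts the breakdown of branched-chain amino acids (1.18). In the pair labelled WT, Mob3a read 249 and 548 and Bcat1 228 and 498. For Hilpda the intensities on the arrays labelled LIXs were 385 and 820. Of the 41 genes 2-fold higher on both scales in the pair labelled WT, 39 were above 0 in that labelled LIXs, and of the 15 lower genes 5 were below 0. Lrtm1 (0.04), Slc2a2 (-0.07), Aqp4 (0.10) and Cited2 (0.05) lay near 0 between the arrays labelled LIXs, and the immediate early list had a median of 0.39 there.

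**Figure D5:**
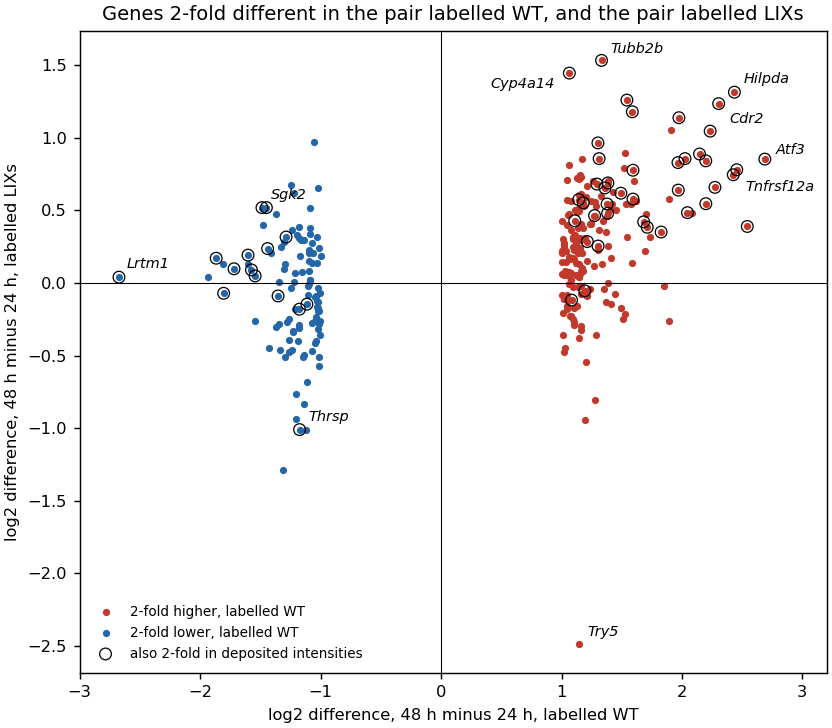
Log2 difference between 48 h and 24 h in the pair labelled LIXs (vertical) against that in the pair labelled WT (horizontal) for the genes 2-fold different in the latter, with 1 point per gene and black rings for genes also 2-fold different in deposited intensities. Ringed higher genes lie above 0 on the vertical axis in 39 of 41 cases, and ringed lower genes lie below it in 5 of 15.

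A test of time was possible only over both genotype labels. The limma fit on the 4 Dox arrays, with the genotype label as a block, covered 7682 genes detected on at least 2 of them and had 1 residual degree of freedom. It called 0 genes (0%) at an adjusted p under 0.05, while 772 had an unadjusted p under 0.05. The smallest adjusted p was 0.084 in limma. At that value stood Hilpda, with a log2 difference averaged over both labels of 1.87 ± 0.27 (SE), Cdr2 (1.77 ± 0.27), Rab15 (1.56 ± 0.25), Tubb2b (1.43 ± 0.21), Mob3a (1.40 ± 0.22) and Bcat1 (1.38 ± 0.22). All 6 were higher at 48 h in both pairs. On the deposited intensities without background correction the same fit called 194 genes, 140 of them higher at 48 h and 54 lower.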

How the data were processed

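Total RNA of pooled FVB mouse liver was converted to biotinylated cRNA and hybridised to Illumina bead arrays, per the labels' protocols. The authors deposited linear intensities of 45281 probes on 6 arrays, with GenomeStudio named in the submitters' processing notes and a normalization method not given in the sources used here. Medians were 113 on every array and sorted values agreed within 0.0199 on the log2 scale, so the table was treated as normalized and not background-subtracted. A table of unnormalized signals, deposited by the authors, stayed out because none of its 6 signal columns could be tied to a sample by name.

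The background was set at the mode of all intensities (109, SD 7.62), corrected with limma 3.58.1 in R 4.3.3 (normexp, offset 16), followed by quantile scaling and log2. At the detection level of 129, a share of 0.01 of the background distribution lies above. The design had assumed detection p-values from control probes; this level stood in for them. Names came from the platform annotation (34885 probes with 1 gene, 18 with several, 10378 with none; 34807 matched a RefSeq gene), and the brightest probe over all arrays stood for a gene.

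The 2 arrays were compared by their log2 difference with no test. A ratio with 1 side below detection is a lower bound, for which the dim side took the lowest detected signal of that array, or its own signal where higher. Time was also tested with limma (Benjamini-Hochberg, 0.05) on the 4 Dox arrays. With the label as a block, its 1 residual degree of freedom is the disagreement between the pairs labelled WT and LIXs in their change with time. Its errors therefore include any response to time particular to 1 label. Its prior had 9.80 degrees of freedom and an SD of 0.222, so its errors come mostly from all genes together and hold no spread between animals. Data simulated 5 times for that fit over 7682 genes gave calls for 58% of the 2-fold and 99.8% of the 4-fold changes, and 8.88% of calls were false. These shares are for an effect of time averaged over both labels. On the real arrays the differences of the pairs labelled WT and LIXs had a Pearson correlation of 0.20. How often the fit would call a difference present under only 1 label was not tested.

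Genes named were the 15 largest differences in each direction among genes detected on both arrays, the 5 largest bounds in each direction, all list members past 2-fold, up to 4 leading members of lists with none, the 5 largest shared and opposite differences with the pair labelled LIXs, and Xbp1. A few further members (such as Jun, Gadd45a, Hspa8, Saa1, Hamp2, Dgat2 and Cyp8b1) and the markers of other cell types were chosen for the text after their values were seen. The comparison, the 45 lists and these rules were chosen with earlier results of these data known. Alternatives covered the background correction, scaling, detection rule, probe rule, fold and arrays.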

Additional observations from a re-analysis of the deposited data

Results flagged for a closer look

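Some genes and lists lay in opposite directions in the 2 pairs of arrays at 48 h and 24 h. With 1 array per group, the difference between the pairs was not tested for any of them. Pancreatic genes stood out: Try5, a trypsinogen, was at 1.14 in the pair labelled WT and -2.48 in that labelled LIXs, Gm10334, annotated beside the trypsins, at 0.90 and -2.21, and the insulin gene Ins2 at 0.82 and -3.05. The median of the pancreatic acinar list was 0.35 and -2.46. In the pair labelled WT its 26 genes summed to 17157 at 24 h and 17103 at 48 h, and in that labelled LIXs to 41079 at 24 h and 17674 at 48 h, so the 1 array apart was not of the pair labelled WT. On the arrays of that pair these genes were near the detection level, with Try5 at 123 and 160 and Ins2 at 118 and 140.

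Nr1d1, the clock repressor REV-ERBα, was at -0.92 in the pair labelled WT and 0.79 in that labelled LIXs, from intensities of 149 and 122 and of 137 and 169. Nt5dc1, a nucleotidase-domain gene, was at -0.79 and 0.83. The secretory pathway lists also differed in sign, and their summed levels, given above, were highest on both arrays labelled WT on Dox, against the genotype labels. Median differences in the pairs labelled WT and LIXs were -0.17 and 0.30 for ER chaperones and folding enzymes, -0.15 and 0.28 for ER translocation, and -0.23 and 0.28 for COPII, COPI and Golgi trafficking.

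Probes without a gene name lie outside the comparison. Of 1778 such probes detected on an array labelled WT on Dox, 25 were 2-fold higher at 48 h and 24 were 2-fold lower. The largest difference, for ILMN_1227348, was 2.25, from intensities of 4133 and 19289.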

How the results depend on the processing

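The number of 2-fold genes depended on how the dim probes were treated. The 304 genes (197 higher, 107 lower) became 56 (41 and 15) with no background correction, 121 (89 and 32) with an offset of 50 and 174 (121 and 53) with detection at 2 times the background mode. A fold of 1.5 gave 1600 (872 and 728), and detection on both arrays left 65 lower genes. No named gene past 2-fold changed direction under any setting, and smaller differences were not checked for direction. Of 650 values of named genes 47 moved by 1.5-fold or more. A change of the detection rule alone could not move such a value. With no background correction 32 named genes moved and 54 did not. Of 304 list medians 12 moved by at least 0.2. The immediate early median of 0.89 was 0.40 with no background correction, 0.57 with an offset of 50, 1.38 with detection at 2 times the mode and 0.34 with no filter. Without background correction the medians of female-biased genes, neutrophil genes and pancreatic acinar genes were -0.14, 0.09 and 0.13. With detection at 2 times the mode those of heat shock genes, p53 targets and neutrophil genes were 0.50, 0.71 and 1.10, and those of interferon and stellate cell genes turned from 0.11 each to -0.14 and -0.11. The share of higher genes also higher in the pair labelled LIXs, 76.6%, was 95.1% with no background correction and 86.2% with detection on all 4 arrays, and that of lower genes, 52.3%, was 33.3% and 41.9%. The Pearson correlation between the pairs was 0.12 with no filter. The cause of these shifts was not tested.

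The time fit in limma called 194 genes with no background correction and, without the block, 0 to 50 genes when each array was left out in turn. It called 50 without the array labelled WT at 24 h and 13 without that labelled LIXs at 24 h, where limma took the spread as common to all genes. The labels give no replicate numbers, so no replicate block could be fitted. The time fit pairs the arrays by genotype label, and without that block it called 0 genes, with 183 at an unadjusted p under 0.05 against 772 with it. The value table holds no bead counts, so the depth behind a probe is unknown, and for probes near the detection level of 129 ratios rest on the correction chosen.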

Other observations

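Clock genes stayed within 2-fold between the arrays labelled WT, with a median of 0.07 over 17 counted members. Per1 and Per2, repressors of the clock loop, stood at 0.65 and 0.70, and Bhlhe40 at 0.51. Dbp, an output factor with a strong daily rhythm, read 3338 at 24 h and 2075 at 48 h, a difference of -0.71, and Tef, a factor of the same family, stood at -0.72. The time of day of each harvest, not given in the sources used here, was not compared.

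Female-biased liver genes had the lowest median of the functional lists, -0.34 over 14 counted genes, and -0.14 on the deposited intensities. Cyp4a14 was its 1 member past 2-fold, in the other direction, and A1bg read 939 and 555 (-0.87). Male-biased genes had a median of -0.00 over 24, with the major urinary protein gene Mup20 at 3573 and 5157. Of 13 counted growth hormone axis genes 8 were above 0, with a median of 0.17 and Igfbp1, described above, past 2-fold. Igf1 read 6711 on both arrays and Ghr 1777 and 1716. Of 26 counted interferon genes, Oasl1 (118 and 153) and Rsad2 (191 and 297) were past 2-fold after background correction. Oasl1 was detected only at 48 h, so its count as 2-fold rests on a 24 h value below the detection level. The median was 0.11, but -0.14 with detection at 2 times the background mode, and the list summed to 14228 at 24 h and 12927 at 48 h. Bst2 read 477 and 328.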
